A study of Homo sapiens with 115 samples.

Results

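Repopulated cells [R] of the p53-/- line were compared with unirradiated cells [N] of the same line. The members were the 8 [R] and the 7 [N] cells that the sample labels give as genotype p53minus, 15 of the 43 p53-/- and 72 p53+/+ single cells of the series. The study's text divides the same cells between the lines slightly differently, and the labels were followed here. HCT116 is a human colorectal cancer cell line. Its p53-/- form was obtained by homologous recombination and is 1 clone. The [R] cells were picked 30 days after a single dose of 8 Gy. The [N] cells carry the labels 8 Gy and day 0, and the study's text calls them untreated. The p53+/+ line (11 [R] and 6 [N] cells) and the p53-/- cells of the stages between, pre-budding persister cells [P], budding cells [B] and newly budded progeny [S], are given beside them. The question was what remained different once the irradiated population had grown back.

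Ionizing radiation breaks DNA. In cells with p53, a transcription factor, the breaks raise a set of target genes that halt the cell cycle or start apoptosis. Without p53, the arrest in G1 is weak, and cells can pass through replication with damage, become polyploid and later return to a smaller size. Epithelial cells of the colon hold to the matrix through hemidesmosomes, in which laminin-332 is the ligand outside the cell, and to each other through desmosomes and tight junctions over a keratin network.

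The genes were ordered by the fold of the median CPM (counts scaled to a total of 1000000 per cell) over the 8 [R] cells to that over the 7 [N] cells, given as log2 with 1 CPM added to each median. Cells of 1 line at 1 stage make 1 sample here, so this fold is a description with no test. Tests were run on 10 sums of counts, 1 for each stage of each line. Of 8641 genes with a mean of at least 10 CPM and counts in at least 5 of the 15 cells, 701 (8.11%) were at least 2-fold higher and 260 (3.01%) at least 2-fold lower in [R]. The median over all genes was 0.07. All [R] values lay above all [N] values for 82 genes (0.949%) and below them for 26 (0.301%). In the p53+/+ line, 15.8% of the 8641 genes were at least 2-fold higher and 6.19% lower in [R], with a median of 0.21.

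No gene passed an adjusted p of 0.05 in edgeR's quasi-likelihood test on the sums. Within the p53-/- line, an unadjusted p under 0.05 was reached by 600 of 19894 genes (3.02%) that were higher and by 1159 (5.83%) that were lower. The [R] and [N] sums of this line have no replicate of their own and were assumed to vary like the lines do in [P], [B] and [S]. By DESeq2, 196 genes (0.985%) passed the adjusted threshold as higher and 624 (3.14%) as lower. For [R] against [N] over both lines, edgeR again called 0 genes. There, 890 higher (4.47%) and 821 lower genes (4.13%) had an unadjusted p under 0.05, and by DESeq2 the calls were 219 (1.1%) and 191 (0.96%). Words such as higher and lower describe medians over cells below, and none of these differences passed edgeR's adjusted threshold.

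The [R] libraries were deeper, with 42.1 to 65.3 M counts (M, 1000000) against 15.8 to 47.3 M in [N], and yet held fewer detected genes, 12361 to 14198 against 14092 to 16675. Pearson's r of log2(CPM + 1) across the 8641 genes was 0.710 to 0.795 between [R] cells, 0.801 to 0.941 between [N] cells and 0.721 to 0.840 between an [R] and an [N] cell. The [R] cells were thus less alike among themselves than the [N] cells were. All 8 [R] cells share 1 name prefix that no [N] cell has, whereas 5 [N] cells have 0109 and 2 have 1115. Stage and name prefix cannot be told apart. Against the 0109 cells alone 766 genes (8.86%) were at least 2-fold higher and 292 (3.38%) lower, and against the 1115 cells alone 972 (11.2%) and 510 (5.9%). Of 91 named genes past 2-fold, 12 were not past it against the 0109 cells alone and 29 were not against the 1115 cells alone. Values against each [N] prefix are given below where the direction depends on it or the fold moves most.

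The fold also moved with base composition. Genes were put into 5 equal bins by the GC content of their transcripts. Of the bin with the highest content (median 60.3%), 19.7% were at least 2-fold higher in [R] and 1.10% lower. In the bin with the lowest content (median 37.7%), 3.65% were higher and 4.14% lower. Spearman's rho of GC content with the fold was 0.24 over 8215 genes, which are not independent replicates. Its part in single results was not tested beyond a fold centred within 10 bins of GC content, which is given beside the main lists.

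**Figure D1:**
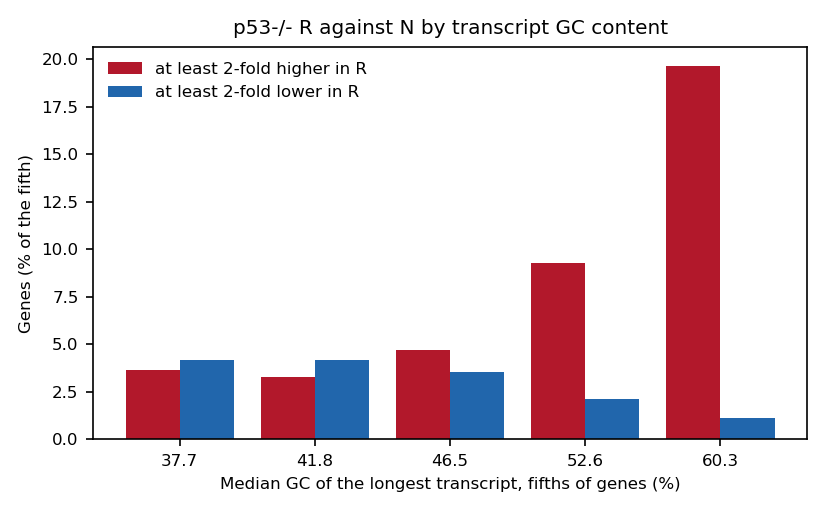
Share of genes at least 2-fold higher (red) or lower (blue) in p53-/- [R] than [N] cells, in 5 bins of genes by transcript GC content. The x axis gives the median GC content of each bin and the y axis the share of its genes, both in percent, and the share higher goes from 3.65% in the lowest to 19.7% in the highest bin.

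Of 14 markers of colorectal epithelium, 9 passed the filter, with EPCAM at medians of 794 and 766 CPM and KRT8 at 3498 and 3145 CPM in [R] and [N]. CDX1 and CEACAM5 had no count in the 15 cells. The summed level of all 14 was 5802 to 11153 CPM in [R] and 4630.3 to 11622 CPM in [N]. None of 8 fibroblast, 10 leukocyte and 5 red blood cell markers passed the filter, and 1 of 5 endothelial markers did, ESAM, with medians of 22.2 and 15 CPM. Of these other-lineage lists, the highest summed levels in a cell were 33.4 CPM in [R] and 15.4 CPM in [N], endothelial markers aside.

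The 7SL RNAs, the scaffold of the signal recognition particle that takes nascent secretory proteins to the endoplasmic reticulum, were higher for all 3 copies that passed the filter. Their copies share nearly all of their bases, so that reads of one copy can be counted on another. RN7SL1 and RN7SL2 differ at 4 of 299 positions (98.7% identity) and RN7SL2 and RN7SL3 at 11 (96.3%) in the GENCODE transcripts.

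RN7SL2 was at 387 to 4690.3 CPM in [R] with a median of 945, and at 18.5 to 632 CPM in [N] with a median of 222. In the [R] group, 6 of 8 cells lay above every [N] cell. RN7SL1 had medians of 889 and 237 CPM and RN7SL3 of 52.0 and 10.8 CPM. The log2 folds were 1.90 for RN7SL1, 2.09 for RN7SL2 and 2.17 for RN7SL3. They were 2.62 to 2.91 in the p53+/+ line. Through the stages between, RN7SL2 had medians of 240.4 CPM in [P], 4075 CPM in [B] and 1611 CPM in [S], so that the [R] median lay between those of [N] and of the budding stages. The level against the [N] cells depended on the prefix, with a log2 fold of 1.55 against 0109 and 4.38 against 1115. In edgeR's test of the sums, the log2 fold of RN7SL2 was 2.43 (SE 0.64, adjusted p = 0.38). The other structural RNAs of the list (RN7SK, RMRP and RPPH1) did not pass the filter.

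Some ribosomal RNA entries moved too. The 18S entries RNA18SN4 and RNA18SN3 had medians of 38.2 and 29.9 CPM in [R] against 3.42 and 2.98 CPM in [N], and the precursor entry RNA45SN2 of 63.7 against 8.88 CPM. Near-identical copies of this repeat share reads, so the split over entries is uncertain, and these RNAs carry no long poly(A) tail. The mitochondrial 16S rRNA (RNR2) was at 12249.8 to 35782 CPM in [R] and 5113 to 20698 CPM in [N], a log2 fold of 1.68, while the 12S rRNA (RNR1) differed by -0.08 with overlapping ranges. Mitochondrial rRNA made up 1.32% to 4.26% of counts in [R] and 0.675% to 3.14% in [N]. No entry of the table matched the 13 mitochondrial mRNAs by name.

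Laminin-332 and its attachment genes were higher. Of 10 hemidesmosome and laminin genes that passed the filter (11 listed), 4 (40%) were at least 2-fold higher and 0 lower. The shares over all genes were 8.11% and 3.01%. All 10 folds were above 0, with a median of 0.70 beside 0.07 for all genes. Centred within GC content the list's median was 0.73. As the mean of log2(CPM + 1) per cell, the list was at 5.19 to 7.03 in [R] and 4.67 to 5.64 in [N], with overlapping ranges.

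LAMB3, the beta-3 chain, had 60.8 to 226 CPM in [R] (median 131) and 11.6 to 188 CPM in [N] (median 30.7), where 1 [N] cell stood above the other 6. LAMA3, the alpha-3 chain, was low, with medians of 10.5 and 4.35 CPM, and was not past 2-fold against the 0109 cells alone (0.986). PLEC, which ties hemidesmosomes to keratin filaments, had medians of 227 and 102.4 CPM with overlapping ranges. The medians of [P], [B] and [S] also lay above that of [N] for LAMB3 and PLEC. LAMB3 had medians of 153, 297 and 99.3 CPM in [P], [B] and [S] and PLEC of 162, 569 and 276 CPM. In the p53+/+ line 7 of the same 10 genes were at least 2-fold higher in [R], with a median of 1.504. Of all genes in that line 15.8% were higher, with a median of 0.21. There LAMB3 had medians of 22.4 and 2.93 CPM.

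The set of promoters searched, from RefSeq (GRCh38.p14), covered 6 of the 11 genes. The motif TGANTCA, the core letters of AP-1 sites, is its own reverse complement and was searched in the 250 bases before each start. It stood in 2 of the 12 promoters of the list (16.7%) and in 6.57% of all 35116 promoters. Those 2 are shown because they belong to partner chains of the same trimer, with the motif in capitals. LAMB3 has 3 listed starts, and the one with the most matches was taken, at chr1:209651375-209651624 on the minus strand. LAMA3 is at chr18:23872770-23873019 on the plus strand. A match of letters is not a site of binding.
LAMB3: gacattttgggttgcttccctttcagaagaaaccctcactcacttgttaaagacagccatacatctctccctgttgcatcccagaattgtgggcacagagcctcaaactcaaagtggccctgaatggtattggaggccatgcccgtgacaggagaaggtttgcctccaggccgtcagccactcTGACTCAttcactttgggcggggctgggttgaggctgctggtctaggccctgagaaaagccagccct
LAMA3: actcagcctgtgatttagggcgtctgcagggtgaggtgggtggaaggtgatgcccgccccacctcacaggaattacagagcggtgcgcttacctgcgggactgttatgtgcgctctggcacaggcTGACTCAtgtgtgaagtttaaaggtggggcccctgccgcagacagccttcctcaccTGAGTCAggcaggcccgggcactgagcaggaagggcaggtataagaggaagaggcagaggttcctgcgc

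Keratin and junction genes showed the same direction. Of 23 that passed the filter, 6 (26.1%) were at least 2-fold higher and 0 lower, beside 8.11% and 3.01% of all genes. The median was 0.70, and 0.59 when centred within GC content. KRT81, a hair keratin, was at 59.9 to 391 CPM in [R] (median 171) and at 8.72 to 82.7 CPM in [N] (median 22.8). Again 7 of 8 [R] cells lay above every [N] cell. Its medians were 27.8, 51.2 and 24.9 CPM in [P], [B] and [S], all below [R]. KRT81 was nearly absent from the p53+/+ line, with medians of 0 CPM in [R] and 0.949 CPM in [N]. The difference between the lines was 4.13 on the log2 scale in edgeR's test (SE 2.04, adjusted p = 0.656).

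JUP, the plakoglobin of desmosomes and adherens junctions, had medians of 152 and 64.7 CPM, KRT80 of 35.7 and 12.7 CPM and CLDN12 of 83.8 and 38.0 CPM. DSC2, a desmosomal cadherin, was the remaining junction gene past 2-fold beside CLDN4. Against the 1115 cells alone, JUP (0.68), CLDN12 (0.71) and CLDN4 (0.96) were not past 2-fold. DSC2 (0.80) was not past it against the 0109 cells alone. For the tight junction claudins of the epithelial markers the groups did not overlap. CLDN4 was at 105.9 to 379.7 CPM in [R] and 52.6 to 97.7 CPM in [N], and CLDN7 at 253 to 489.7 and 148 to 199 CPM. ELF3, an epithelial transcription factor, had medians of 38.0 and 13.1 CPM. KRT18 had a log2 fold of -0.67 with overlapping ranges.

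Genes of mitosis were lower. Of 51 that passed the filter, 5 (9.80%) were at least 2-fold lower and 0 higher, beside 3.01% and 8.11% of all genes. Of the folds, 42 were below 0, and the median was -0.49 (-0.43 centred within GC content). The 5 were SGO2, CCNB1, HMMR, KIF18A and CCNB2. Against the 0109 cells alone, CCNB1 (-0.99) and KIF18A (-0.83) were not past 2-fold. CCNB1, the cyclin that drives entry into mitosis, was at 237 to 497 CPM in [R] (median 348) and at 587 to 1393 CPM in [N] (median 807), and the groups did not overlap. In the sums it had 358 CPM in [R] (exact 95% Poisson interval 356 to 359) and 900.3 CPM in [N] (896 to 904), intervals that cover counting error only. In edgeR's test its log2 fold was -1.47 (SE 0.65, adjusted p = 0.574).

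SGO2, a guardian of centromere cohesion, had medians of 29.6 and 80.1 CPM, with 6 of 8 [R] cells below every [N] cell. HMMR, a spindle protein, had 46.7 and 109 CPM. KIF18A, a kinesin that limits chromosome movement, had 33.3 and 75.7 CPM, and CCNB2 had 106.4 and 238 CPM with 7 [R] cells below every [N] cell. The stages between were lower still for CCNB1, with medians of 208, 101.4 and 331.8 CPM in [P], [B] and [S]. As the mean of log2(CPM + 1) over the list, mitosis genes had medians of 7.14 in [N] and 6.61 in [R]. The medians of [P], [B] and [S] were 6.31, 5.21 and 6.65. The [R] cells were close together (6.36 to 6.90), and the p53+/+ [R] cells spread from 2.87 to 7.60. Of the same 51 genes 13 were at least 2-fold lower in the p53+/+ line, with a median of -0.73. Of all genes in that line 6.19% were lower, with a median of 0.21.

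Genes of DNA replication were not lower as a list. Of 46, 1 was at least 2-fold higher (POLD1, the catalytic subunit of polymerase delta) and 0 lower, and the median was 0.02. POLD1 had medians of 47.0 and 19.8 CPM. DUT, a nucleotide supply gene, had a log2 fold of -0.83, and RPA3, a subunit of the single-strand binding protein, of -0.83. As the mean of log2(CPM + 1), the replication list had medians of 6.98 in [N], 5.51 in [B] and 6.88 in [R]. Of 17 cyclins and CDK inhibitors none passed 2-fold. CCND1, the G1 cyclin, came nearest, with 736 to 1715 CPM in [R] and 420.3 to 864 CPM in [N].

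The proximal promoters of mitosis genes are known for CCAAT boxes and for the cell cycle homology element TTTGAA. The set of promoters searched covered 43 of the 51 genes. CCAAT (either strand) stood in the 250 bases before the start in 40 of their 51 promoters (78.4%) and in 32.0% of all promoters, and TTTGAA (either strand) in 49.0% and 13.3%. Both B-type cyclins are shown with the motifs in capitals because both were at least 2-fold lower in [R] and are the partners of the mitotic kinase CDK1. CCNB1 lies at chr5:69166900-69167149 with 2 CCAAT matches and CCNB2 at chr15:59104896-59105145 with 4 CCAAT matches and 1 TTTGAA match, both on the plus strand.
CCNB1: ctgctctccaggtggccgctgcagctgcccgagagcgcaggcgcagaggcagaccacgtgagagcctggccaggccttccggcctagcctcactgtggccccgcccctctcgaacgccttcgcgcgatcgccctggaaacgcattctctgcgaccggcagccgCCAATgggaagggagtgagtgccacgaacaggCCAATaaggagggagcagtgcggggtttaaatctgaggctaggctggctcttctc
CCNB2: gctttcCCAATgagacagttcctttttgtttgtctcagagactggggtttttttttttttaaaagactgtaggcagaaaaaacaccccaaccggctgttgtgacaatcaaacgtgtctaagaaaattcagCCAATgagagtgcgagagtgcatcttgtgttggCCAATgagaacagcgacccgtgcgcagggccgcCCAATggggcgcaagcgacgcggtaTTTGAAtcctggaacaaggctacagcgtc

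**Figure D2:**
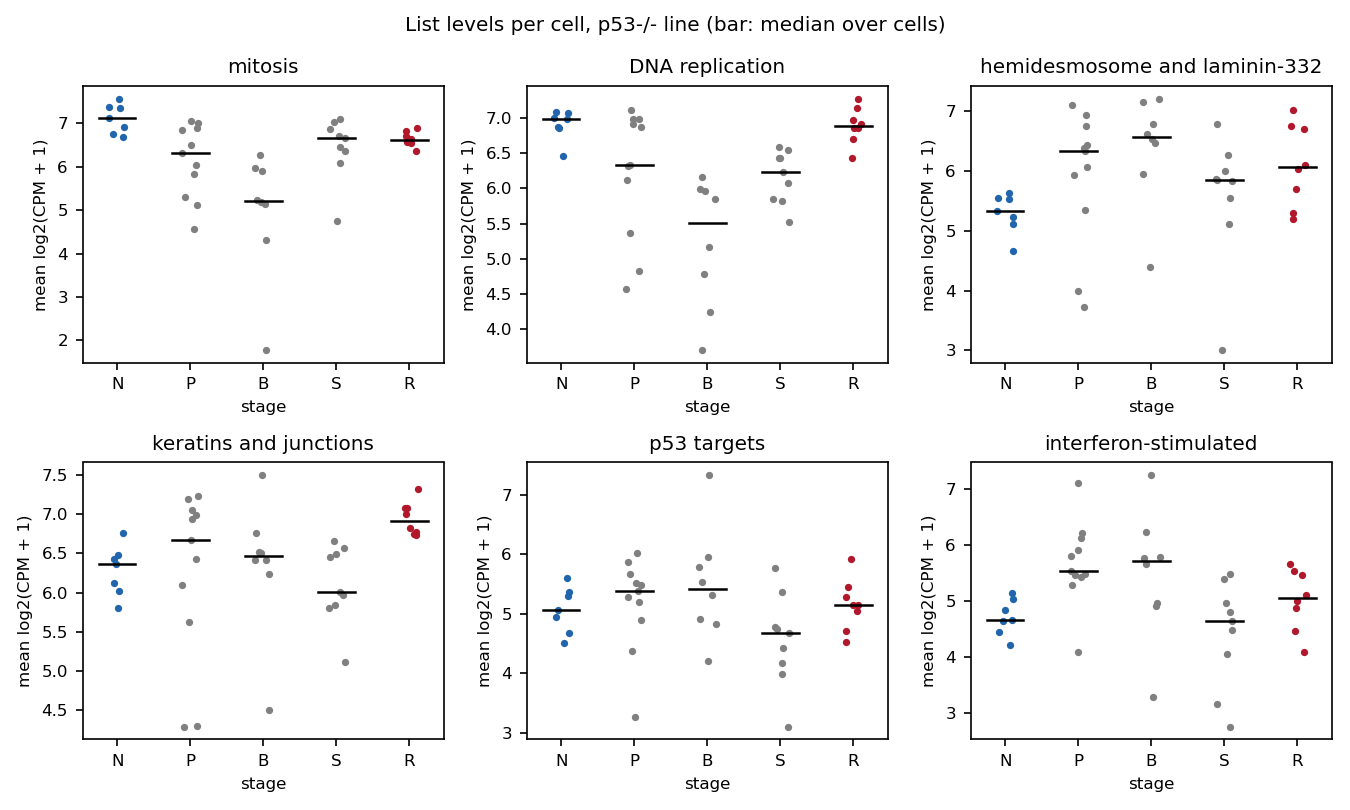
Mean log2(CPM + 1) over the members of 6 gene lists in each p53-/- cell (points), by stage from [N] to [R], with the median over cells as a bar; [N] is blue, [R] red and the other stages grey. For mitosis the median goes from 7.14 in [N] to 5.21 in [B] and 6.61 in [R], and for hemidesmosome and laminin-332 from 5.33 to 6.58 and 6.07.

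Chromatin proteins of the HMG family moved in opposite directions. HMGA1 was at 1376 to 1975 CPM in [R] and 485 to 1068 CPM in [N], with no overlap. HMGN2, which binds nucleosomes, was at 573 to 1157 CPM in [R] and 1235 to 2474 CPM in [N], again with no overlap. HMGA2 had medians of 23.6 and 67.8 CPM, with 7 [R] cells below every [N] cell. LMNB2, a nuclear lamin, had medians of 107.3 and 50.4 CPM. Of the 14 genes of the lamina and HMG list 2 were at least 2-fold higher and 2 lower, with a median of -0.17. In edgeR's test the log2 folds were 1.06 for HMGA1 (SE 0.51, adjusted p = 0.594) and -1.61 for HMGA2 (SE 0.43, adjusted p = 0.38). HMGA1 had medians of 359.6, 826 and 712 CPM in [P], [B] and [S], against 761 CPM in [N] and 1743 CPM in [R].

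Most p53 targets were within 2-fold in the line without p53. Of 21 that passed the filter, 3 (14.3%) were at least 2-fold higher and 1 (4.76%) lower, with a median of 0.32. Over all genes the shares were 8.11% and 3.01%. In the line with p53, 16 of the same 21 were higher and 0 lower, with a median of 1.87. Over all genes there, 15.8% were higher and 6.19% lower, with a median of 0.21. CDKN1A, the inhibitor p21, was at 50.1 to 407 CPM in p53-/- [R] (median 100.2) and at 26 to 131 CPM in [N] (median 83.8). Its p53+/+ medians were 1145 and 72.4 CPM. The difference between the lines was -3.00 on the log2 scale in edgeR's test (SE 0.87, adjusted p = 0.39). edgeR called none of the 21 targets, of which 7 had an unadjusted p under 0.05 towards a smaller [R] to [N] fold in the p53-/- line and 0 the other way. DESeq2 called 3 of the 21 towards a smaller fold, and not CDKN1A.

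MDM2, the ubiquitin ligase of p53, had medians of 64.5 and 35.3 CPM in the p53-/- line and of 164 and 36.4 CPM in the p53+/+ line. The 3 targets past 2-fold higher without p53 were PHLDA3, TNFRSF10B (a TRAIL death receptor) and AEN (a nuclease), with medians of 24.6, 177 and 85.4 CPM in [R] against 9.23, 79.4 and 39.9 CPM in [N]. Against the 1115 cells alone the log2 folds of PHLDA3 and TNFRSF10B were 0.64 and 0.27, and that of AEN was 1.39. PLK3, a stress kinase, went the other way, at 5.46 against 23.7 CPM, and in the p53+/+ line at 62.6 against 9.40 CPM. Among 11 BCL2 family genes 1, BCL2L11, was past 2-fold (higher), and the median was 0.04.

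Stress and growth factor response genes went in both directions. DDIT3, the transcription factor CHOP of the integrated stress response, was at 0.462 to 50.7 CPM in [R] (median 11.3) and 24.9 to 315 CPM in [N] (median 53.3), with 7 of 8 [R] cells below every [N] cell. Its medians were 54.9 to 68.8 CPM in [P], [B] and [S], near the [N] median and above that of [R]. In edgeR's test the log2 fold was -2.88 (SE 0.55, adjusted p = 0.289). SLC7A5, a leucine transporter, was at 310.2 to 1196 CPM in [R] and 91.6 to 235 CPM in [N] without overlap. SLC1A5, a glutamine transporter, had medians of 257 and 90.7 CPM. Of 25 genes of this list 3 were at least 2-fold higher and 2 lower, with a median of 0.11. DDIT4, an inhibitor of mTORC1, was the other lower one, at 9.41 against 23.5 CPM. Its log2 fold was -0.42 against the 0109 cells and -2.72 against the 1115 cells, and 1 [N] cell had 400.2 CPM. PPP1R15A was higher against the [N] cells of prefix 0109 (1.38) and not against 1115 (-0.08).

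EGR1, an immediate early transcription factor, was at 4.47 to 25.5 CPM in [R] (median 9.40) and 17.2 to 342 CPM in [N] (median 52.1), and DUSP6, a phosphatase that dampens ERK, had medians of 56.3 and 156 CPM. Of 26 immediate early and feedback genes 2 (7.69%) were at least 2-fold higher and 3 (11.5%) lower, beside 8.11% and 3.01% of all genes. The median was 0.33. The others past 2-fold depended on the [N] prefix. KLF4 had -1.93 against 0109 and 1.94 against 1115, JUN 1.85 and -0.11, and DUSP1 1.65 and -0.13. With p53, 14 of the 26 were higher and 2 lower, beside 15.8% and 6.19% of all genes in that line. EGR1 had medians of 58.8 CPM in p53+/+ [R] and 27.9 CPM in [N].

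**Figure D3:**
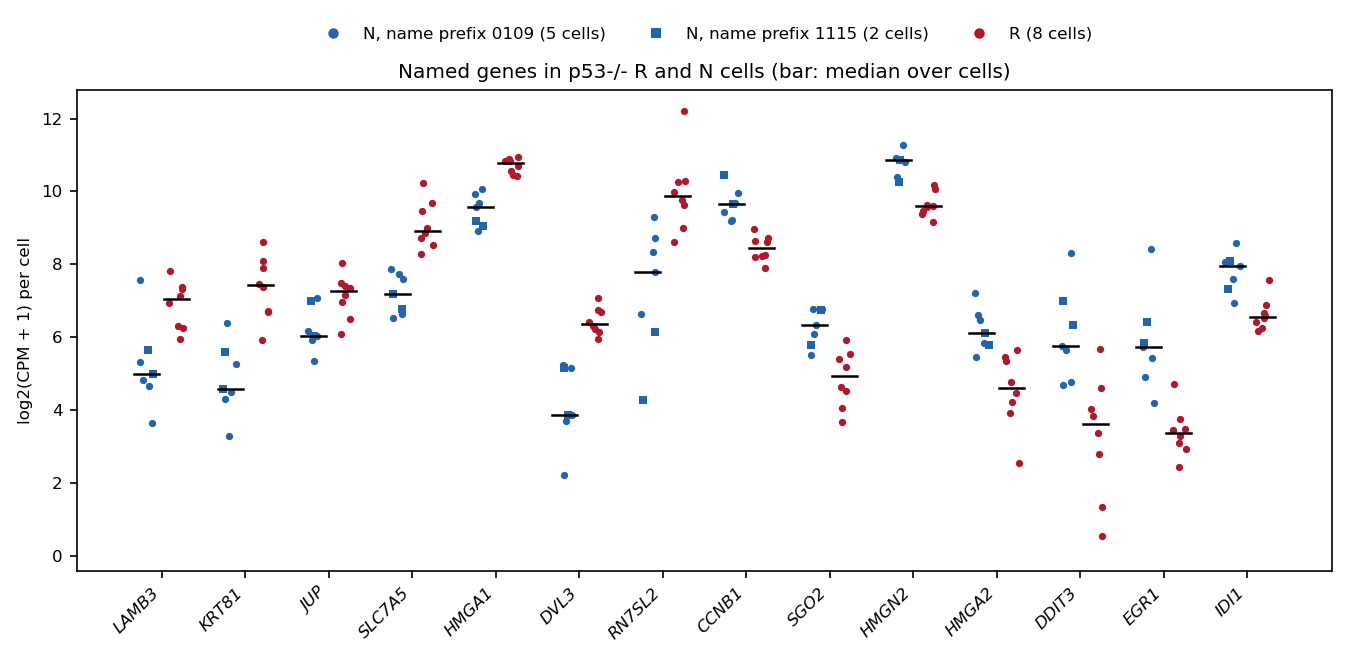
log2(CPM + 1) of named genes in each p53-/- [N] cell (blue, squares for name prefix 1115) and [R] cell (red), with the median over cells as a bar. SLC7A5, DVL3 and HMGA1 are higher in all [R] cells than in any [N] cell, and CCNB1 and HMGN2 are lower.

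Sterol synthesis genes were lower in part. Of 30 genes 4 (13.3%) were at least 2-fold lower and 1 (3.33%) higher, beside 3.01% and 8.11% of all genes. The median was -0.17. IDI1, an isomerase of the isoprenoid pathway, was at 70.5 to 189 CPM in [R] and 121 to 381 CPM in [N]. INSIG1, which holds the sterol sensor in the ER, had medians of 19 and 45.8 CPM, and HMGCS1, which makes HMG-CoA, of 14.6 and 31.8 CPM. STARD4 had -1.62 against the 0109 cells and 1.38 against the 1115 cells. SREBF1, a sterol and lipid regulator, was the higher one, at 21.8 against 10.1 CPM. Against the 1115 cells alone, INSIG1 (-0.96), HMGCS1 (-0.68) and SREBF1 (0.73) were not past 2-fold. With p53, 6 of the 30 were higher and 0 lower, beside 15.8% and 6.19% of all genes in that line. The difference between the lines for INSIG1 was -2.41 in edgeR's test (SE 0.77, adjusted p = 0.427).

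Interferon-stimulated genes were described for their place in the stages between. Of 19 that passed the filter, 3 were at least 2-fold higher and 0 lower, with a median of 0.39. IFI6 was at 7.65 to 100.4 CPM in [R] (median 42.5) and 5.85 to 15.1 CPM in [N] (median 11.6), and had medians of 100.8 and 137 CPM in [P] and [B]. DTX3L and SAMD9 had medians of 20.6 and 19.5 CPM against 6.53 and 8.31 CPM. As the mean of log2(CPM + 1), the list had medians of 4.66 in [N] and 5.05 in [R], with overlapping ranges. The medians of [P], [B] and [S] were 5.55, 5.71 and 4.64. Of 6 MHC class I genes none passed 2-fold. B2M, their light chain, had medians of 531 and 664 CPM.

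DNA repair genes were near the level of all genes. Among 26 homologous recombination genes 1 was higher (XRCC3, 15.6 against 7.03 CPM) and 0 lower, with a median of 0.16. Among 11 end joining genes 1 was lower, XRCC4, a partner of ligase IV, at 41.8 against 90.8 CPM, and the median was -0.03. XRCC4 was already at 39.2, 37.3 and 42.4 CPM in [P], [B] and [S].

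Genes of protein synthesis and energy supply were mostly within 2-fold. The median fold was -0.06 over 78 cytosolic ribosomal proteins, -0.17 over 75 mitochondrial ones and -0.10 over 74 respiratory chain subunits, with 0 past 2-fold in each list. With p53, 5, 10 and 22 of these were at least 2-fold lower, with medians of -0.73, -0.58 and -0.84. Over all genes in that line 6.19% were lower, with a median of 0.21, and the 5 of 78 were close to that share. Of 35 ribosome biogenesis genes 2 were higher, MYBBP1A (75.6 against 20.02 CPM) and BOP1, which did not overlap (237 to 487 against 88.6 to 222 CPM). The median was 0.22. The proteasome (34 genes, median -0.18) had none past 2-fold, and among 28 genes of glycolysis and hypoxia (0.21) SLC2A3 was higher and ALDOC lower, the first with -0.39 against the 0109 cells.

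Of 29 chaperones 2 were higher, HSPA1B and CDC37, a kinase partner of HSP90, with a median of -0.05 for the list. HSPA1B had medians of 25.1 and 5.77 CPM, and its log2 fold was 2.02 against the 0109 cells and 0.035 against the 1115 cells. CDC37 was at 97.5 to 289 CPM in [R] and 46.4 to 98.2 CPM in [N]. Of 36 ER folding and secretion genes 2 were higher, HYOU1 and SEC61A1, and the median was -0.10. NRF2 targets included SRXN1 (446 against 189 CPM) and GCLM (335 against 145 CPM), with 3 of 19 higher, 0 lower and a median of 0.13. HMOX1, the third, had 1.62 against the 0109 cells and -0.36 against the 1115 cells. Of 11 iron genes STEAP3 was higher and IREB2 lower (median 0.29). Among 25 lysosomal genes PSAP was higher (median 0.26), with 1.18 and -0.21 against the 0109 and 1115 cells.

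The remaining lists held 3 genes or fewer past 2-fold each. Secreted factors had 3 of 12 higher (25%, beside 8.11% of all genes), SERPINB2, CXCL8 and PLAUR, with a median of 0.08. PLAUR had -0.20 against the 1115 cells, and CXCL8 0.26 against the 0109 cells. Regenerative epithelial genes had 3 of 18 higher (16.7%), MSLN, ANXA10 and PLAUR, with a median of 0.08. ANXA10 had a log2 fold of 1.12 here and of -3.95 in the p53+/+ line. Among 27 ESCRT genes HGS was higher (median 0.12), and among 10 histones H1FX was (median -0.16). The 4 mesenchymal genes (median 0.78), 4 crypt base genes (0.06), 3 metallothioneins (-0.04) and 16 long non-coding RNAs (-0.27) had none past 2-fold.

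**Figure D4:**
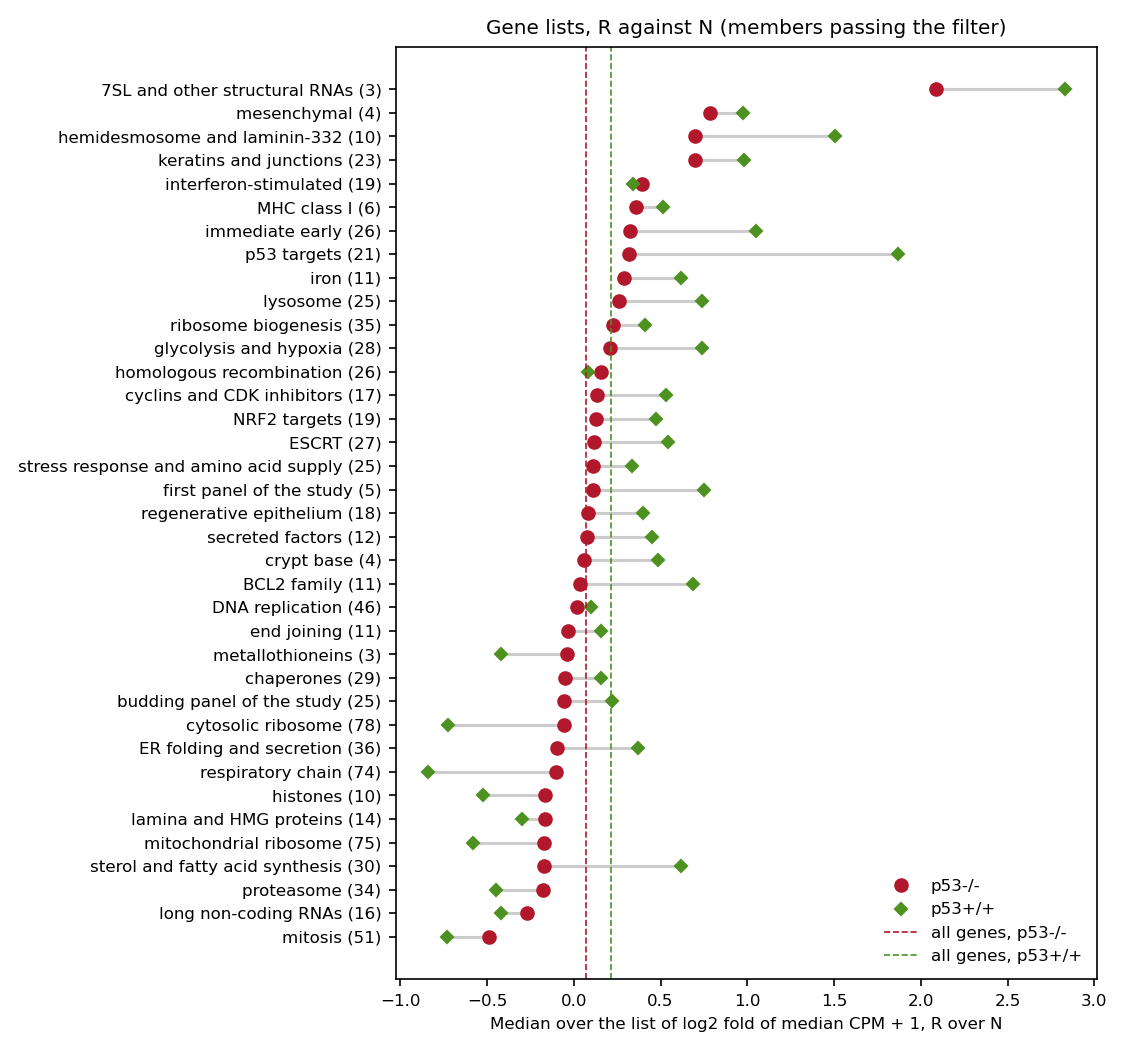
Median over each gene list of the log2 fold of median CPM + 1, [R] over [N], in the p53-/- line (red circles) and the p53+/+ line (green diamonds); the number of members passing the filter is in parentheses and dashed lines mark all genes. p53 targets stand at 0.32 and 1.87, mitosis at -0.49 and -0.73.

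The study's own panels were chosen on cells of these stages and are no independent evidence. Parts of them were analysed here. Of 5 genes of its first panel, RN7SL2 alone passed 2-fold. RPS12, SELENOM, KRT19 and CST3 had log2 folds of 0.08, -0.27, 0.11 and 0.26. CST3, a protease inhibitor, was at 64.2 to 297 CPM in [R] and 95.6 to 152 CPM in [N], after medians of 260.4 and 476 CPM in [P] and [B]. SNCG had medians of 6.07 and 6.42 CPM in the p53-/- line and of 62.7 and 55.1 CPM in the p53+/+ line, a difference between lines and not between these stages. Of 25 genes of the budding panel 2 were higher, CDC37 and ASS1, and 0 lower, with a median of -0.06.

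Among single genes with a median of at least 20 CPM in the higher group, no cell above 50% of that group and the same direction against both [N] prefixes, the 10 largest rises in median held HYPK, KRT81, KDM5C, SLPI, DVL3, ZNF765 and SEMA3C besides the ribosomal entries. DVL3, a scaffold of Wnt signalling, was at 60.9 to 135 CPM in [R] and at 3.63 to 36.9 CPM in [N], without overlap. Its log2 fold was 1.83 in edgeR's test (SE 0.42, adjusted p = 0.337). Its medians were 38.8, 57.0 and 53.3 CPM in [P], [B] and [S] and 41.7 against 14.7 CPM in the p53+/+ line. SLPI, an inhibitor of leukocyte proteases, had medians of 21.3 and 2.75 CPM and SEMA3C, a secreted semaphorin, of 27.4 and 4.20 CPM. KDM5C, a histone demethylase, had 24.2 and 2.64 CPM, with 1 [N] cell at 34.8 CPM and a log2 fold of 0.36 against the 1115 cells.

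HYPK had medians of 147 and 3.85 CPM, while the readthrough entry SERF2-C15ORF63, which overlaps it, had 0 and 203 CPM. Both values are uncertain, since reads may be assigned to either entry, and the same holds for RPL17-C18orf32 (0 against 40.8 CPM). The 10 largest falls also held PCDH7, PTPN12, CNEP1R1, OMA1, DDIT3, AKAP11 and TM4SF18. PCDH7, a protocadherin, had medians of 7.96 and 48.9 CPM, and PTPN12, a tyrosine phosphatase, of 5.30 and 32.6 CPM. OMA1, a protease of the inner mitochondrial membrane, had medians of 7.80 and 39.5 CPM but 1 [R] cell at 59.9 CPM. TM4SF18 had medians of 7.56 and 34.9 CPM but 1 [R] cell at 154 CPM. In the sums it was at 33.4 CPM in [R] and 36.4 CPM in [N]. Between the lines PCDH7 and PTPN12 had log2 folds of one sign, with -2.59 and -1.84 in the p53+/+ line.

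Of the 701 genes at least 2-fold higher in the p53-/- line, 322 (45.9%) were also higher in the p53+/+ line, which is 23.6% of the 1367 higher there (15.8% of the 8641 genes), and 14 were lower. Of the 260 lower genes, 55 (21.2%) were also lower, which is 10.3% of the 535 lower there (6.19% of all), and 27 were higher. The 2 comparisons share no cells. The [N] cells of both lines share the prefixes 0109 and 1115. For the difference between the lines edgeR called 0 of 19894 genes. An unadjusted p under 0.05 was reached by 420 (2.11%) with a larger and 1303 (6.55%) with a smaller fold in the p53-/- line, and by DESeq2 the calls were 152 (0.764%) and 604 (3.04%).

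By chromosome, the median log2 fold ran from -0.17 on chromosome 13 (146 genes, 4 higher and 11 lower past 2-fold) to 0.26 on chromosome 19 (476 genes, 59 higher and 5 lower). These were also the chromosomes with the lowest and the highest median GC content of the genes, 41.0% and 58.9%. A chromosome was known for 94.98% of the 8641 genes.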

How the data were processed

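Full-length cDNA was made from single HCT116 cells, and molecules carried no identifiers. By the study's methods and processing notes, fastp trimmed the reads and HISAT2 2.0 placed them on GRCh38. The tool that made the counts is not given in the sources used here. The authors deposited raw counts for 43386 genes in each cell, of which 9490 have no count in any cell. Groups came from the labels, and 0 columns belonged to other samples. CPM was computed per cell over all counts, and medians were taken over cells.

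For tests, counts were summed into 10 sums of 5 stages and 2 lines and fitted with edgeR 4.0.16 (R 4.3.3; TMM, robust quasi-likelihood, Benjamini-Hochberg over the 19894 genes that filterByExpr kept at a minimum count of 10, with counts in at least 12 cells). DESeq2 1.42.0 was an alternative. The SE printed with an edgeR log2 fold was calculated back from the test, as the absolute fold divided by the square root of the F statistic. No source says that the cells came from separate cultures, and cells were not treated as replicates. The cell line was the only candidate for pairing the sums. Differences between the lines at [R] and at [N] correlated at 0.083 across genes (0.072 to 0.211 over pairs of stages).

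Members and lists were chosen with earlier results of these data known. Named genes were the 10 largest rises and falls in median under the conditions given in the text, up to 4 members of each list with the largest folds, genes the study names, CDKN1A and MDM2. List members past 2-fold beyond these 4 were added after their values were seen. Other settings were the pseudocount, filters, scaling, thinned cells, each [N] prefix alone, each cell left out and, chosen after seeing the data, the fold centred within 10 bins of GC content. The scripts were tested on simulated data. Sequences came from RefSeq, and some genes and sequences are not reported here.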

Additional observations from a re-analysis of the deposited data

Results flagged for a closer look

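Of 130 groups of 7 or 8 values looked at, 13 held a cell far from the others of its group. A share of about 1 in 20 by chance would hold only for independent values. These groups overlap, as RN7SL2 belongs to the first panel, and some genes were picked for large folds. The 13 were therefore not set against chance. List levels are means of log2(CPM + 1). Among the [R] cells, replicate 2 had an MHC class I level of 6.55 (median of the others 5.41), a level of the study's first panel of 9.39 (8.01) and log2(CPM + 1) of RN7SL2 of 12.2 (9.77). Replicate 3 had a glycolysis and hypoxia level of 6.93 (7.29). Replicate 7 had a histone level of 7.13 (7.66). Replicate 4 had log2(CPM + 1) of HYPK of 3.39 (7.37), and replicate 8 of ZNF765 of 0 (4.52).

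Among the [N] cells, replicate 5 had a DNA replication level of 6.46 (6.99) and an NRF2 target level of 6.98 (7.35). Replicate 4 had an immediate early level of 6.17 (5.18) and an iron level of 6.84 (7.24). Replicate 6 had log2(CPM + 1) of RPL17-C18orf32 of 0 (5.501) and of TM4SF18 of 3.60 (5.32).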

How the results depend on the processing

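The 701 higher and 260 lower genes became 273 and 65 with a pseudocount of 10 CPM, 1086 and 1346 without a filter on low values, 194 and 39 where the mean had to reach 50 CPM, and 35 and 17 past 4-fold. Against the [N] cells of prefix 1115 alone 510 were lower. The mean of log2(CPM + 1) gave 565 and 352, DESeq2's size factors 585 and 305, and centring within GC content 523 and 251. Leaving out each cell gave 571 to 809 higher and 229 to 309 lower. edgeR called 0 genes in each of the 3 tests with library size as the only scaling, without the filter and with sums per name prefix. It also called 0 with the cell line as the replicate block, run for [R] against [N] over both lines alone. The block thus changed no call of that test, and it was not tested within the p53-/- line. With an [R] or [N] sum left out, 1 sum remained in that group. The median log2 fold over both lines was then -0.088 to 0.155, beside 0.024 with all sums. DESeq2 called 410 genes over both lines, 820 in the p53-/- line and 756 for the difference between lines.

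Against prefix 1115 alone, list medians moved by more than the spread between cells for hemidesmosome and laminin-332 (1.37), 7SL and other structural RNAs (3.94), the BCL2 family (0.62), crypt base (1.21), mitochondrial rRNA (-0.066), iron (-0.033), lysosome (-0.022), histones (0.16), ESCRT (-0.12) and the budding panel (0.15). Centred within GC content the budding panel stood at -0.29. Leaving out each cell in turn moved the iron list to between 0.044 and 0.34. The direction turned against prefix 1115 for PPP1R15A (-0.083), STARD4 (1.38), KLF4 (1.94), JUN (-0.11), PLAUR (-0.20), HMOX1 (-0.36), PSAP (-0.21) and DUSP1 (-0.13), and against prefix 0109 for SLC2A3 (-0.39). The cause was not tested, and prefix 1115 holds 2 cells. Of 91 named genes past 2-fold, 82 kept their sign and 40 stayed past 2-fold under all settings tried, LAMB3, KRT81, SLC7A5, DVL3, SGO2 and DDIT3 among the 40. Below about 10 CPM a fold depends on the pseudocount and on cells without a count.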
